A study of Mus musculus with 18 samples.

Results

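The urea cycle, the liver pathway that turns ammonia into urea, was followed across 3 diets in 18 mouse livers through 8 genes: Cps1, Nags, Otc, Ass1, Asl, Arg1, Slc25a15 and Slc25a13. Members were the probe sets whose annotation gives exactly 1 of these symbols, which selected 11 probe sets for 8 of the 18193 genes with a single-symbol probe set. None of the 11 passed the test over all probe sets in any diet comparison. All 11 had lower means with 1% quercetin than with the control diet (6 of 11 among replicates 4 to 6 alone). The widest differences were on the single-symbol probe set of Ass1, which was dim. They were -0.73 ± 0.26 against control and -1.14 ± 0.26 against 0.05% quercetin (log2 ± SE, n = 6 mice per diet). On a brighter probe set shared by Ass1 and the pseudogene Gm5424, not a member, they were -0.26 ± 0.12 and -0.28 ± 0.12.

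Male C57BL/6J mice, spelled C56BL/6J in the sample characteristics, were 5 weeks old when feeding began. They received AIN93G, a purified rodent diet, with no addition (control), with 0.05% quercetin or with 1% quercetin for 20 weeks. Quercetin is a plant flavonol. Each diet had 12 mice at 3 per cage, and arrays were run on total liver RNA of 6 mice per diet, 1 mouse per Affymetrix array. The labels do not tie mice to cages, and no fit has a cage term.

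In hepatocytes, nitrogen enters the cycle in mitochondria as carbamoyl phosphate, which is joined to ornithine to make citrulline. Citrulline leaves for the cytosol, takes up a second nitrogen from aspartate and is cleaved by way of argininosuccinate and arginine, which releases urea and returns ornithine. The enzymes are known to be concentrated in periportal hepatocytes, and their transcripts respond to protein intake, glucagon and glucocorticoids. Ammonia that escapes is taken up by pericentral hepatocytes and built into glutamine.

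Values are log2 of the intensity plus 16 after quantile normalization, one value per mouse, and a probe set's level is not comparable with another's. The deposited arrays were not on a common scale, with medians of 14.2 to 21.9 intensity units. The array of 1% quercetin replicate 1 stood apart, with a mean correlation of 0.964 with the other arrays against 0.973 to 0.978 for the other 17. The members' comparisons with the 1% diet are therefore also given without it. The relations with Ass1, the related genes and the markers are given with it only. Markers of hepatocytes averaged 13.1 to 13.4 at 1% quercetin, 13.0 to 13.3 at 0.05% and 13.2 to 13.3 in controls (5 genes tested, mean of their log2 values per mouse). In whole liver, fewer cells of a type and less RNA per cell cannot be told apart. Replicates 1 to 3 and 4 to 6 also stood apart within diets, which was seen in the values, and no label gives a batch for it. Their values did not overlap for 5 of 11 members in controls, 0 of 11 at 0.05% and 2 of 11 at 1%, beside 21.8%, 21.5% and 18.6% of all tested probe sets in those diets. Array medians in the 0.05% diet were 14.7 to 16.3 for replicates 1 to 3 and 19.5 to 21.9 for 4 to 6. In controls they were 15.7 to 17.2 and 17.5 to 19.8. In the 1% diet they overlapped, at 14.2 to 17.8 and 14.7 to 21.1. All 11 member probe sets lay above the filter on dim probe sets, a mean log2 value of 4.69 over the 18 arrays.

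**Figure D1:**
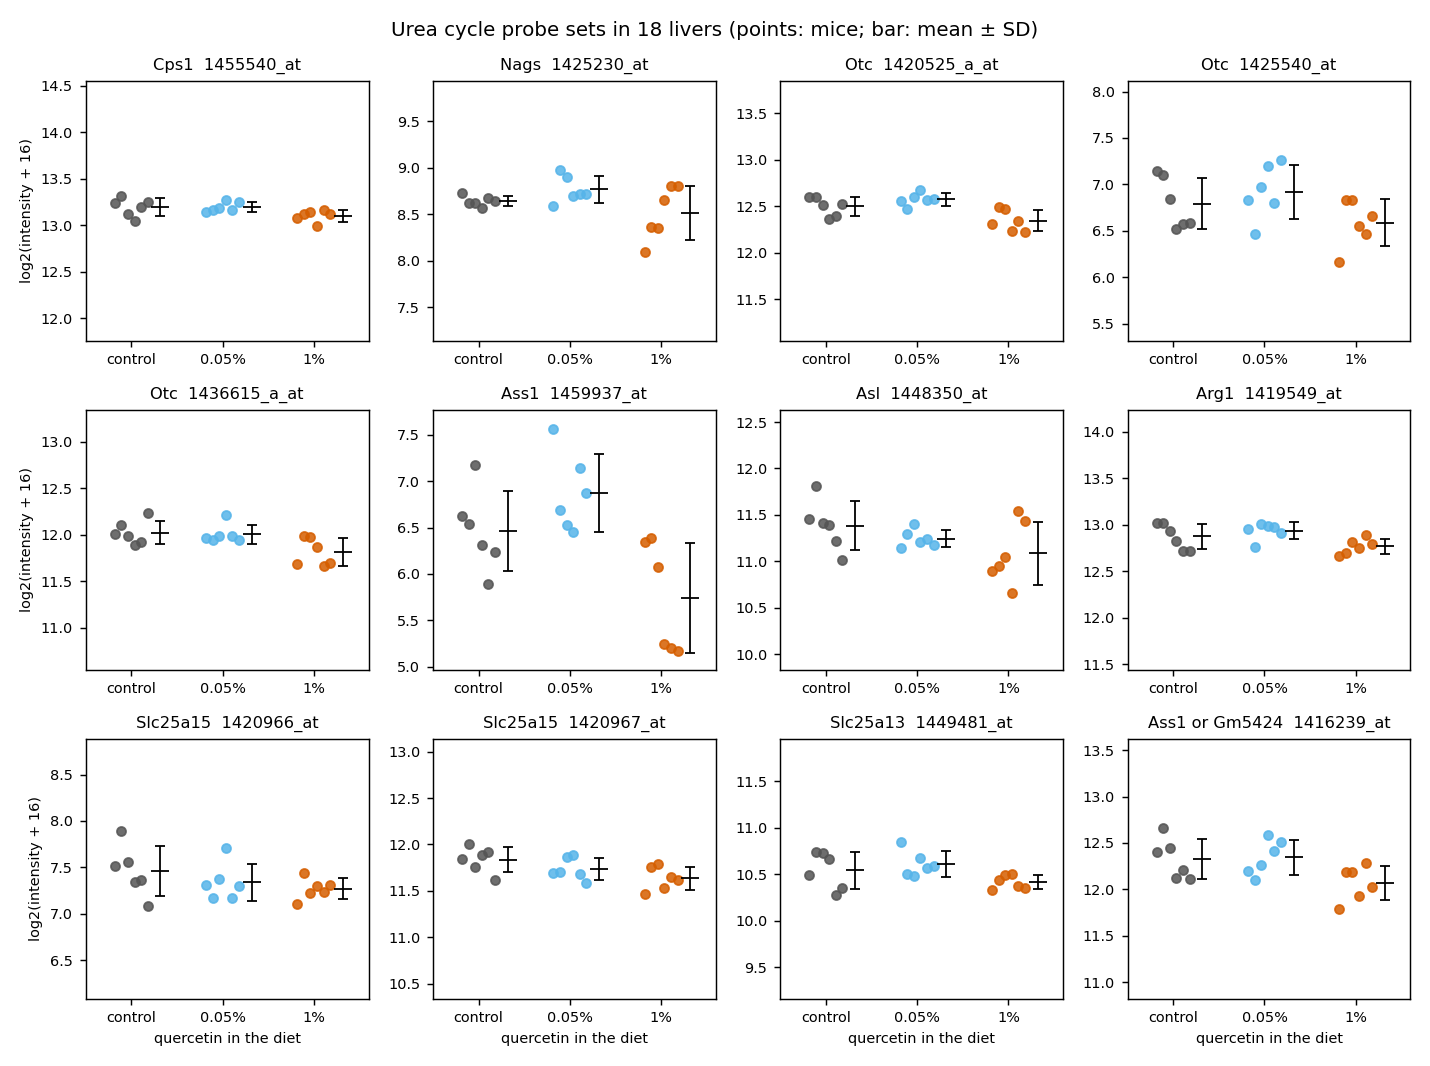
Level of each urea cycle probe set in each mouse, as log2(intensity + 16) after quantile normalization, against the quercetin content of the diet. Points are mice, drawn from replicate 1 on the left to 6 on the right, and bars are the mean ± SD of 6 mice, and each panel spans the same number of log2 units. The last panel is the probe set shared by Ass1 and Gm5424, which is not a member. The 3 lowest Ass1 points at 1% quercetin stand at 5.17 to 5.24.

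Neither of the first mitochondrial members passed in any comparison. Cps1, which makes carbamoyl phosphate, lay between 13.05 and 13.32 in controls (median 13.22), 13.15 and 13.27 at 0.05% (13.18) and 12.99 and 13.17 at 1% quercetin (13.12). The 1% and control mice overlapped, 5 of 6 mice at 1% lay below every 0.05% mouse, and the difference of 1% from control was -0.09 ± 0.07, with a 95% interval of -0.23 to 0.05. Nags, the synthase of N-acetylglutamate, the allosteric activator that Cps1 needs, ran from 8.57 to 8.73 in controls (median 8.63), 8.59 to 8.98 at 0.05% (8.72) and 8.09 to 8.81 at 1% (8.51). Its 1% mice were spread on both sides of the controls: replicates 1, 2 and 3 lay below every control, and replicates 5 and 6 above every control. The SD of Nags was 0.29 at 1%, against 0.05 in controls. Without 1% replicate 1, the lowest of all, the Nags difference from controls was -0.04, in place of -0.13.

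Otc, which joins carbamoyl phosphate to ornithine, was read by 3 probe sets. On 1420525_a_at it lay between 12.36 and 12.60 in controls (median 12.52), 12.47 and 12.67 at 0.05% (12.58) and 12.23 and 12.49 at 1% (12.33). Of the 1% mice, 4 of 6 lay below every control and 4 of 6 below every 0.05% mouse. On 1436615_a_at it spanned 11.89 to 12.23 in controls (median 12.00), 11.94 to 12.21 at 0.05% (11.97) and 11.66 to 11.99 at 1% (11.78). On the dim 1425540_at it spanned 6.51 to 7.14 in controls, 6.46 to 7.26 at 0.05% and 6.17 to 6.84 at 1%. The 3 probe sets had the same sign for 1% against control, at -0.15 ± 0.07 on 1420525_a_at, -0.21 ± 0.09 on 1436615_a_at and -0.21 ± 0.15 on 1425540_at.

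In the cytosol, Ass1 condenses citrulline with aspartate, the step at which the second nitrogen enters. The gene lies at chr2:31470270-31520670 in the GRCm38.p6 annotation (the array file names no build). Its single-symbol probe set, 1459937_at, was dim: deposited intensities were 45.8 to 124 in controls, 67.9 to 173 at 0.05% and 17.1 to 66.6 at 1%. On the log2 scale it spanned 5.89 to 7.17 in controls (median 6.43), 6.45 to 7.57 at 0.05% (6.78) and 5.17 to 6.39 at 1% (5.66). Every 1% mouse lay below every 0.05% mouse, and 3 of 6 lay below every control. These 3 were replicates 4, 5 and 6, at 5.24, 5.20 and 5.17, while replicates 1, 2 and 3 stood at 6.34, 6.39 and 6.08. The file gives no detection call, so whether the lowest values were above background is not known.

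Asl, which splits argininosuccinate into arginine and fumarate, spanned 11.02 to 11.81 in controls (median 11.40), 11.14 to 11.40 at 0.05% (11.23) and 10.66 to 11.55 at 1% (10.998). The 1% mice were divided, with 3 of 6 below every control and replicates 5 and 6 at 11.55 and 11.44, above the control mean of 11.38. Arg1, which cleaves arginine to urea and ornithine, spanned 12.72 to 13.02 in controls (median 12.88), 12.76 to 13.01 at 0.05% (12.97) and 12.66 to 12.89 at 1% (12.77). Its diets overlapped, with differences of -0.11 ± 0.08 for 1% and 0.06 ± 0.08 for 0.05% against control.

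The mitochondrial carriers serve the cycle from the membrane. Slc25a15, which exchanges ornithine for citrulline, lay on 1420967_at between 11.61 and 12.01 in controls (median 11.87), 11.58 and 11.88 at 0.05% (11.70) and 11.47 and 11.79 at 1% (11.63). The 1% mice were all below the control mean of 11.84, but 2 of 6 below every control. Its dimmer probe set 1420966_at spanned 7.08 to 7.89 in controls, 7.17 to 7.71 at 0.05% and 7.10 to 7.44 at 1%, and the diets overlapped. Slc25a13, the aspartate-glutamate carrier that exports the aspartate used by Ass1, spanned 10.27 to 10.74 in controls (median 10.58), 10.48 to 10.85 at 0.05% (10.58) and 10.33 to 10.50 at 1% (10.40). For Slc25a13, 0 of 6 mice at 1% lay below every control and 4 of 6 below every 0.05% mouse.

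The 1% diet was first set against control. With limma and Benjamini-Hochberg adjustment over 22885 probe sets, 0 of 11 member probe sets passed, beside 0.00874% of all probe sets called, and the smallest adjusted p among members was 0.492 (Ass1). At an unadjusted p under 0.05, 3 of 11 were lower and 0 higher, beside 8.08% of all probe sets in either direction, 3.97% lower and 4.11% higher. They were Ass1 (-0.73 ± 0.26, interval -1.27 to -0.19), Otc on 1436615_a_at and Slc25a15 on 1420967_at (-0.20 ± 0.09), each lower than the control mean in 6 of 6 mice. Their adjusted p-values by limma were 0.492, 0.545 and 0.561. All 11 members had lower means at 1%, beside 49.9% of all probe sets lower and 50.1% higher, and the median difference was -0.19 over the members and 0.0002 over all probe sets. The outermost 95% bounds of the members other than Ass1 were -0.59 (Asl) and 0.11 (Otc 1425540_at). Without 1% replicate 1, 1 of 11 was lower at an unadjusted p under 0.05, beside 6.53% of all probe sets: Ass1, at -0.85 ± 0.26 (adjusted p = 0.541).

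The 0.05% diet against control gave no member at either threshold: 0 of 11 passed after adjustment, beside 0.00437% of all probe sets, and 0 of 11 had an unadjusted p under 0.05, beside 5.93% (3.33% higher and 2.61% lower). Of the 11, 7 had higher and 4 lower means, beside 49.2% and 50.8% of all probe sets, with a median difference of 0.06 over the members and -0.003 over all probe sets. Ass1 had the widest difference, 0.41 ± 0.26 (interval -0.13 to 0.95, adjusted p = 0.881, higher than the control mean in 5 of 6 mice), and the other members lay between -0.14 ± 0.14 (Asl) and 0.13 ± 0.15 (Otc 1425540_at). The bounds for Cps1 were -0.14 and 0.14. The sign of Cps1, Arg1 and Otc 1420525_a_at in this comparison turned negative after the median shift, a normalization that moves each array by 1 constant.

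Set against 0.05% quercetin, the 1% diet gave 0 of 11 members after adjustment, beside 0% of all probe sets. All 11 had lower means at 1%, beside 49.6% of all probe sets lower and 50.4% higher. At an unadjusted p under 0.05, 7 of 11 were lower, beside 9.4% of all probe sets in either direction, 4.68% lower and 4.72% higher. Ass1 ranked 30 of 22885 probe sets by p, at -1.14 ± 0.26 (interval -1.68 to -0.60, adjusted p = 0.211), 2.20-fold lower at 1% on the scale with 16 added, which understates the change of a dim probe set, and below every 0.05% mouse in 6 of 6. The other 6 were the 3 Otc probe sets, with differences of -0.33 to -0.19, Nags (-0.25 ± 0.11), Slc25a13 (-0.20 ± 0.09) and Arg1 (-0.17 ± 0.08), with adjusted p-values of 0.361 to 0.530. Cps1, Asl and both Slc25a15 probe sets had unadjusted p-values of 0.165 to 0.561. Without 1% replicate 1 the count was 2 of 11, beside 8.26% of all probe sets: Ass1 (-1.26 ± 0.26, adjusted p = 0.174) and Otc 1420525_a_at (-0.22 ± 0.08, adjusted p = 0.459). The count was 2 on values as deposited and 3 after the median shift, beside 1548 and 2070 of 22888 probe sets in either direction. This comparison and that of 1% with control share the 1% mice, and so are not independent.

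The comparisons are also given within replicates 1 to 3 and within 4 to 6, with 3 mice per diet each and no test. Among replicates 1 to 3, 11 of 11 members had lower means at 1% than in controls, and among replicates 4 to 6, 6 of 11. At 0.05%, 9 of 11 had lower means than in controls among replicates 1 to 3, and 10 of 11 higher means among 4 to 6. Against 0.05%, 11 of 11 were lower at 1% among replicates 1 to 3 and 9 of 11 among 4 to 6. Shares of all probe sets were not computed within these replicates, so whether the member counts differ from them is not known. On the single-symbol probe set of Ass1, the difference of 1% from control was -0.51 among replicates 1 to 3 and -0.94 among 4 to 6. That of 1% from 0.05% was -0.66 among 1 to 3 and -1.62 among 4 to 6. On 1416239_at, shared by Ass1 and Gm5424, the difference from control was instead wider among replicates 1 to 3 (-0.45) than among 4 to 6 (-0.07). From 0.05%, 1416239_at was at -0.13 among 1 to 3 and -0.42 among 4 to 6. Asl was at -0.59 from control among replicates 1 to 3 and 0.01 among 4 to 6, and Nags at -0.38 among 1 to 3 and 0.13 among 4 to 6. With replicates 1 to 3 and 4 to 6 as a term in the fit, added after the values were seen, 0 of 11 members passed in any comparison, and the adjusted p of Ass1 for 1% against 0.05% was 0.0945, in place of 0.211.

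**Figure D2:**
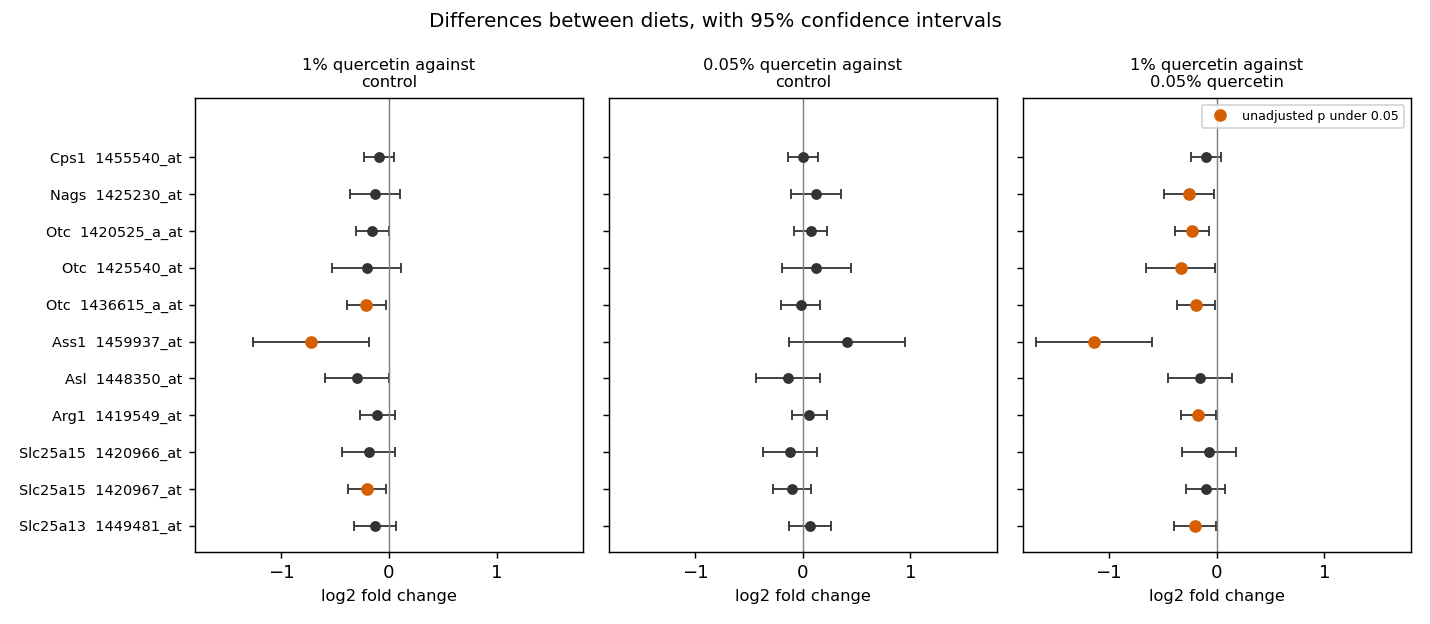
Log2 fold change (horizontal axis) of the 11 urea cycle probe sets (vertical axis) in the 3 diet comparisons, as points with 95% confidence intervals from limma. Orange points have an unadjusted p under 0.05, which holds for 3, 0 and 7 probe sets from left to right, and none passed after adjustment over all 22885 probe sets.

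The test of any difference among the 3 diets, the moderated F-test of limma, passed for 0 of 11 members, beside 0.00874% of all probe sets. At an unadjusted p under 0.05 it held for 3 of 11, beside 8.6%: Ass1 (adjusted p = 0.340), Otc 1420525_a_at (adjusted p = 0.495) and Otc 1436615_a_at (adjusted p = 0.575).

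A further probe set, 1416239_at, is annotated to both Ass1 and Gm5424, a transcribed pseudogene on chromosome 10, so it was no member and its signal was not assigned to either. It spanned 12.11 to 12.66 in controls, 12.10 to 12.59 at 0.05% and 11.79 to 12.28 at 1% quercetin. In a fit that included probe sets with several symbols, added after the data were seen, its difference was -0.26 ± 0.12 for 1% against control (adjusted p = 0.579) and -0.28 ± 0.12 for 1% against 0.05% (adjusted p = 0.473). Those differences were smaller than on 1459937_at, and for 0.05% against control it was at 0.02 ± 0.12, with 0.41 on 1459937_at. Over the 18 mice these probe sets had a Pearson r of 0.43 (permutation p = 0.0742) and a Spearman rho of 0.51 (permutation p = 0.0317). Without the 2 mice farthest from the median of Ass1 the r was 0.45. Within diets it was -0.13 at 1%, -0.28 at 0.05% and 0.57 in controls.

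The levels of Ass1 were then set against those of each other member over the 18 mice, with 7 relations, 100000 permutations and adjustment over the 7. The gene's probe set with the highest mean was used. The permutations, here and for the shared probe set, shuffled mice across diets, so differences between diets enter their p-values. Otc had a Pearson r of 0.74 (permutation p = 0.00045, adjusted p = 0.00315) and a Spearman rho of 0.66 (permutation p = 0.00339, adjusted p = 0.0128). Slc25a13 had an r of 0.66 (permutation p = 0.00277, adjusted p = 0.00970) and a rho of 0.66 (permutation p = 0.00367, adjusted p = 0.0128). Without the 2 mice farthest from the median of Ass1, both at 1%, r was 0.63 for Otc and 0.60 for Slc25a13. The relations were not uniform within diets of 6 mice: r was 0.73 at 1%, -0.31 at 0.05% and 0.51 in controls for Otc, and 0.02 at 1%, 0.67 at 0.05% and 0.74 in controls for Slc25a13. Within replicates 1 to 3 and 4 to 6, with 9 mice each, r was 0.33 and 0.85 for Otc and 0.79 and 0.57 for Slc25a13. On values as deposited neither passed (r of 0.58 for Otc and 0.54 for Slc25a13, both with an adjusted permutation p of 0.0702).

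For Arg1 the r with Ass1 was 0.46 (adjusted permutation p = 0.135) and the rho 0.53 (adjusted permutation p = 0.0605). The other 4 members had an r of -0.06 to 0.30 with adjusted permutation p-values of 0.385 or more. Nags, at r = -0.06 over all mice, had an r of -0.93 with Ass1 within the 6 mice of the 1% diet. That value was singled out after it was seen and was not tested. In that diet the 3 mice lowest in Ass1, replicates 4 to 6, were the 3 highest in Nags. Within replicates 1 to 3 and 4 to 6 of all diets, with 9 mice each, r was 0.33 and -0.34. Over all 28 pairs of the 8 genes, 27 had a positive r, with a median of 0.46 and the highest for Cps1 and Otc (0.75). The share of positive r over pairs of all genes was not computed, so whether 27 of 28 differs from it is not known. The points of each pair share an array and a diet.

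**Figure D3:**
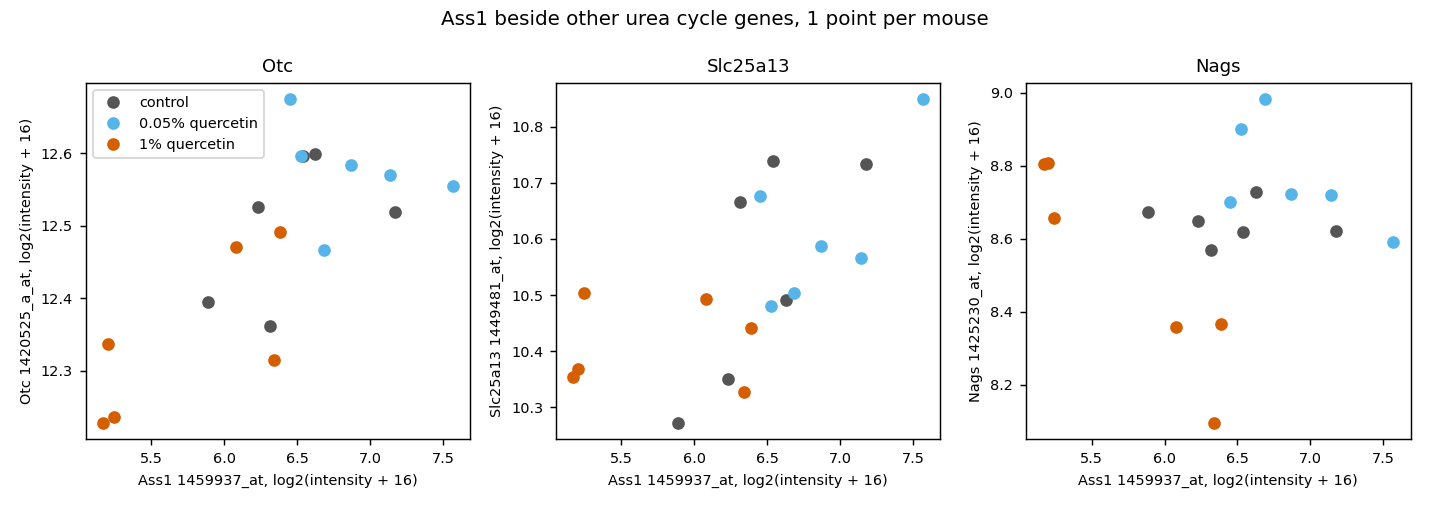
Level of Ass1 on 1459937_at (horizontal axis) beside Otc, Slc25a13 and Nags (vertical axes), with 1 point per mouse coloured by diet. Levels are log2(intensity + 16) after quantile normalization. Over the 18 mice of all diets, Otc and Slc25a13 were higher with higher Ass1 (r = 0.74 and 0.66). Within diets r ran from -0.31 to 0.73 for Otc and from 0.02 to 0.74 for Slc25a13. Nags shows opposite positions within the 1% mice (r = -0.93) with r = -0.06 over all mice.

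Of 12872 other genes above the filter, the 5 most like Ass1 over the 18 mice were Cdo1, a cysteine dioxygenase (r = 0.86), Tle5, a transcriptional corepressor (0.83), Etnppl, a phosphoethanolamine lyase (0.81), Tdo2, the tryptophan dioxygenase (0.79), and Pnkd (0.79). Their means were 12.54, 9.37, 10.08, 12.88 and 8.82 at 1%, against 12.74, 9.61, 10.61, 13.03 and 9.06 at 0.05%. These 5 were picked by their likeness to Ass1 on the dim 1459937_at, so the correlations carry no test.

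The promoters of Ass1, Otc and Slc25a13 are shown because the levels of the last 2 went with Ass1 across mice. They are the 250 bases before a transcript start in RefSeq, build GRCm38.p6, read 5′ to 3′ on the gene's strand, with matches to the motifs searched in capitals. The sequence of Ass1 is chr2:31470020-31470269 (plus strand), that of Otc chrX:10252055-10252304 (plus strand) and that of Slc25a13 chr6:6217174-6217423 (minus strand).
Ass1: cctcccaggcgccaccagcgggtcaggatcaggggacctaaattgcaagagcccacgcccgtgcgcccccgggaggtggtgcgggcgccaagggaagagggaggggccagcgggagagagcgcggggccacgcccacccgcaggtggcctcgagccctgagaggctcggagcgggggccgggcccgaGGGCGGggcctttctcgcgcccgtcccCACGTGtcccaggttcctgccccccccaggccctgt
Otc: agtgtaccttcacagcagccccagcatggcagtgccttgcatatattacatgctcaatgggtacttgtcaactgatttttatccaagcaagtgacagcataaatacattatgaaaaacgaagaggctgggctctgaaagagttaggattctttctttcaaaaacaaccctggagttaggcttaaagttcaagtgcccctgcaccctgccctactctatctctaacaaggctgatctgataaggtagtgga
Slc25a13: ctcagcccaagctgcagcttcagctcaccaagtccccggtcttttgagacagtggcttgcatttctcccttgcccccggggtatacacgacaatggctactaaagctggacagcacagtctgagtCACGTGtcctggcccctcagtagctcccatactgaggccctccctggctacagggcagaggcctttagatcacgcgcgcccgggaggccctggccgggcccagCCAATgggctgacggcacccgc

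The motifs searched on both strands were the E-box CACGTG, the GC-box GGGCGG, the cyclic AMP response element TGACGTCA, the TATA element TATAAA and CCAAT. Ass1 held 1 E-box, 36 bases before the start, and 1 GC-box, Slc25a13 held 1 E-box and 1 CCAAT, and Otc held none of the 5. The annotated bounds of Otc and Slc25a13 reach into their windows, so the starts used lie inside these genes. Of all 32851 promoter windows of this length, 6.02% held the E-box, 32.74% the GC-box, 1.55% the response element, 12.37% the TATA element and 33.85% CCAAT. The base composition differed, with 75.6% G and C in Ass1, 62.8% in Slc25a13 and 43.6% in Otc, beside a median of 52.4% over all windows. Of the 8 genes, 5 matched the RefSeq table, and Cps1, Asl and Arg1 were not matched.

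Other genes of nitrogen handling were counted from 3 lists, with 1 probe set per gene and 0 passing after adjustment in any comparison. In the list for ammonia and glutamine, 12 of 13 genes were tested, and 11 of 12 had lower means at 1% than in controls (median -0.15), beside 49.9% of all probe sets. Of these, 2 had an unadjusted p under 0.05, beside 3.97% of all probe sets lower at that threshold. These 2 were Rhbg, an ammonium transporter (-0.72 ± 0.22), and Got1, the cytosolic aspartate aminotransferase (-0.61 ± 0.26). The count rests on the probe set used for each gene: the other Glul probe set was at -0.42 ± 0.10 for 1% against control (unadjusted p = 0.000484, adjusted p = 0.300), and the one counted at -0.17 ± 0.09. Glul, the glutamine synthetase of pericentral cells, averaged 11.90 ± 0.20 at 1% and 12.18 ± 0.12 at 0.05% (SD, n = 6 each), a difference of -0.28 ± 0.09 with an adjusted p of 0.369, and -0.51 ± 0.10 on its other probe set (adjusted p = 0.155). Car5a, the mitochondrial carbonic anhydrase that supplies bicarbonate to Cps1, was at -0.42 ± 0.21 for 1% against 0.05% (unadjusted p = 0.0578).

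In the list for ornithine, arginine, proline and creatine, 15 of 16 genes were tested and 10 of 15 had lower means at 1% than in controls (median -0.04), beside 49.9% of all probe sets. At an unadjusted p under 0.05, 2 were lower and 0 higher, beside 3.97% lower and 4.11% higher. Oat, the ornithine aminotransferase, averaged 11.40 ± 0.27 at 1% and 11.78 ± 0.32 in controls, a difference of -0.38 ± 0.16 (adjusted p = 0.561), and was at -0.52 ± 0.16 against 0.05%. Prodh, proline dehydrogenase, was at -0.56 ± 0.18 for 1% against control (adjusted p = 0.460). For 1% against 0.05%, Arg2, the mitochondrial arginase, was at 0.33 ± 0.15 and Aldh18a1, which starts proline and ornithine synthesis from glutamate, at 0.54 ± 0.24, with 0.08 and 0.48 on its other probe sets.

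Of 12 regulators of urea cycle genes, all tested, 6 had lower and 6 higher means at 1% than in controls (median -0.01), and 1 was lower at an unadjusted p under 0.05, beside 3.97% of all probe sets. This was Klf15, a transcription factor of amino acid catabolism, which averaged 9.09 ± 0.61 at 1% and 9.87 ± 0.45 in controls (-0.77 ± 0.25, adjusted p = 0.460). Cebpb, a transcription factor induced in fasting and inflammation, was at -0.43 ± 0.20 for 0.05% against control (adjusted p = 0.832). Gcgr, the glucagon receptor, was at 0.15 ± 0.07 for 1% against 0.05%, and Crtc2, a coactivator of CREB, at 0.26 ± 0.14 for 1% against control, neither with an unadjusted p under 0.05.

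Markers of liver zones and other cells also differed in mean between diets. For 1% against 0.05%, 49.6% of all probe sets were lower and 4.68% lower at an unadjusted p under 0.05. Beside this, 8 of 8 pericentral markers had lower means, 3 at that threshold, and their mean per mouse ran from 9.21 to 9.47 at 1% and from 9.45 to 9.84 at 0.05%. Of 4 tested periportal markers 4 were lower, 1 at that threshold, with means per mouse of 11.23 to 12.03 at 1% and 11.91 to 12.16 at 0.05%. Of 6 endothelial markers 5 were lower, 1 at that threshold. All 4 neutrophil markers were higher, 2 at that threshold (4.72% of all probe sets), S100a8 at 1.64 ± 0.59 and S100a9 at 1.28 ± 0.55, with means per mouse of 6.09 to 7.27 at 1% and 5.33 to 6.09 at 0.05%.

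For 1% against control, 6 of 8 pericentral markers were lower, 2 at an unadjusted p under 0.05, beside 49.9% and 3.97% of all probe sets. Of the 4 periportal markers, 2 were lower and 2 higher in that comparison, 0 at that threshold, with a median of -0.007. Ass1 is also known from endothelial cells. Of 6 endothelial markers, 5 had higher means at 1% than in controls, 1 at that threshold, beside 50.1% and 4.11% of all probe sets. Of the endothelial markers 6 of 6 had higher means at 0.05% than in controls, 5 at an unadjusted p under 0.05, beside 49.2% and 3.33% of all probe sets, with means per mouse of 7.51 to 7.66 at 0.05% and 7.18 to 7.40 in controls. Of the neutrophil markers 4 of 4 were lower at 0.05% than in controls, 3 at that threshold, beside 50.8% and 2.61%. Markers of Kupffer cells, stellate cells and cholangiocytes had at most 1 member at that threshold in any comparison. Glul, Oat, Rhbg and Slc1a2 of the nitrogen lists are also in the pericentral list. None of the marker probe sets used passed after adjustment (lowest adjusted p = 0.342, for Oat), nor did the other Glul probe set, and their part in the urea cycle values was not tested.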

How the data were processed

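The deposited table holds linear intensity values, 1 per probe set and array, from 0.0118 to 18108. How the authors summarised and scaled the intensity values is not given in the sources used here; per the labels' protocols, biotin-labelled RNA of each mouse was made with a 3′ IVT kit. Of 45101 probe sets, 64 were controls, 34945 had 1 gene symbol, 932 several and 9160 none. Array medians differed (14.2 to 21.9), so intensities of all non-control probe sets were quantile normalized, 16 was added and log2 taken. Probe sets with 1 symbol and a mean above the 40th percentile were tested, 22885 for 12880 genes. limma 3.58.1 (R 4.3.3) fitted 3 diet means over 18 arrays with 15 residual and 3.92 prior degrees of freedom, two-sided, threshold 0.05 after Benjamini-Hochberg adjustment. The number of arrays limits the precision, with a median SE of 0.13. The fit was tested on simulated data. Permutation tests used scipy 1.17.1.

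Every member probe set is named. Of 3 lists of related genes, up to 4 members each with the smallest p are named, and the 5 genes most like Ass1. A gene outside the members was read by its probe set with the highest mean. The members and lists were chosen with earlier results of these data known. Replicate numbers did not pair mice: of 18 same-numbered pairs, 4 correlated above 0.1 (median 0.001). Alternatives are in the closing section.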

Additional observations from a re-analysis of the deposited data

Results flagged for a closer look

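Of 33 sets of 6 values (11 probe sets in 3 diets), 1 held a mouse far from the others by Dixon's criterion, where chance gives about 1 in 20. On the Otc probe set 1436615_a_at, 0.05% quercetin replicate 4 stood at 12.21, and the other 5 mice of that diet lay between 11.94 and 11.99. Without that mouse the difference of 1% against 0.05% on this probe set was -0.15, in place of -0.19.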

How the results depend on the processing

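In all alternatives run, 0 of 11 member probe sets passed after adjustment in any comparison. For 1% against control, the count at an unadjusted p under 0.05 was 3. It was 6 after the median shift, 5 with trend and robust variance and 2 with array weights. Leaving out each array gave 1 to 4 (1 without 1% replicate 1). Over all probe sets, 1849 of 22885 had such a p in the main fit, in either direction. After the median shift 1761 of 22888 did, with trend and robust variance 1861 of 22885, and with array weights 1788 of 22885. For 1% against 0.05% the member count was 7. It was 2 as deposited, 3 after the median shift, 3 with the replicate block, and 5 with array weights or only the 12 arrays compared. Leaving out each array gave 2 to 7. The lowest was without 1% replicate 1 (2). It was 3 without 0.05% replicate 3 or 4, and 4 without 0.05% replicate 6 or 1% replicate 2, 5 or 6. Over all probe sets, 2152 of 22885 had such a p in the main fit and 1548 of 22888 as deposited. After the median shift 2070 of 22888 did, and with the replicate block 2023 of 22885. With array weights 2367 of 22885 did, and with only the 12 arrays compared 2160 of 22885. For 0.05% against control the member count was 0, and 0 to 1 when leaving out each array (1 without control replicate 3). For the F-test it was 3, 5 with trend and robust variance, and 2 to 4 when leaving out each array. Shares of all probe sets were computed without 1% replicate 1 (given above), but not for other left-out arrays or the F-test alternatives. The replicate block changed no call after adjustment among the members. Over all probe sets it took the calls for 0.05% against control from 1 to 0 and for the F-test from 2 to 0. Over all tested probe sets, calls were 2, 1, 0 and 2 in the order 1% against control, 0.05% against control, 1% against 0.05% and the F-test, with ranges over alternatives of 0 to 5, 0 to 2, 0 to 18 (18 with only the 12 arrays compared) and 0 to 6. Single probe set values turned sign in 11 cases, and in 994 did not. For 0.05% against control these were Cps1 (-0.077 as deposited, -0.10 after the median shift, and -0.027 to 0.027 when leaving out each array, below 0 without control replicate 3 or 4 or 0.05% replicate 4 or 6), Arg1 (-0.013 as deposited, -0.039 after the median shift), Otc 1420525_a_at (-0.022 after the median shift) and Otc 1436615_a_at (-0.060 to 0.023 when leaving out each array, above 0 without control replicate 6). For 1% against 0.05% it was Slc25a15 1420966_at (-0.10 to 0.0042 when leaving out each array, above 0 without 0.05% replicate 4). As deposited, the r of Ass1 with Otc was 0.58 and with Slc25a13 0.54, neither passing, and with Nags 0.030, with the other sign than the -0.06 given above. The causes of these shifts were not tested. Every member's value stayed below 0 for 1% against control in the alternatives run, but not among replicates 4 to 6 alone, where 5 of 11 were above 0. As deposited, 63.8% of all probe sets were also lower for that comparison. The median was then -0.05 over all probe sets and -0.25 over the members.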
